A study of Mus musculus with 4 samples.

Results

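Chromosome 8 held 2852 of the 31315 regions that differed in an active histone mark between embryonic stem (ES) cells of C57BL/6 (B6) mice and non-obese diabetic (NOD) mice. All regions of chromosome 8 in the 4 deposited lists were taken as members: 1481 of 12077 regions enriched for H3K4me3 in NOD, 693 of 7587 enriched for H3K4me3 in B6, 431 of 6126 enriched for H3K27ac in NOD and 247 of 5525 enriched for H3K27ac in B6. The chromosome was selected on its number of regions per Mb in these lists, so that its density is given as a description and is supported by no test. It was set beside the 17 other autosomes that remain once chromosome 6 is left out, which hold 9792, 5792, 5210 and 4689 regions of the same 4 lists. B6 is the inbred strain of the mouse reference genome and NOD is an inbred strain that develops autoimmune diabetes. The ES cells of each strain were derived from blastocysts and kept in 2i medium, which contains inhibitors of MEK and GSK3, and the labels name no other treatment of these cells. The study characterised male lines, but which line of each strain gave the chromatin was not stated in the sources used here. ChIP-Seq was carried out on 1 library per strain and mark, each strain being called against the other, so that a list is a comparison of 2 libraries and no test between strains was possible.

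H3K4me3, trimethylation of histone H3 at lysine 4, marks the promoters of active and poised genes. H3K27ac, acetylation of histone H3 at lysine 27, marks active enhancers as well as active promoters, and wide or very strong clusters of it are called super enhancers. ES cells keep a large part of their developmental genes in a poised state with H3K4me3 at CpG-rich promoters, while genes of the pluripotent state, such as Zfp42 on chromosome 8, carry both active marks. The lists hold only regions that passed the call in 1 strain over the other. A gene without a region is therefore not shown to be unmarked or equally marked. Of 6 marker genes of ES cells, Pou5f1 had 1, Sox2 2, Esrrb 2 and Zfp42 5 H3K4me3 regions enriched in NOD, and Esrrb also had 1 enriched in B6. Nanog and Klf4 had no region, so the lists cannot serve as a check of the cell type by themselves. On the 17 other autosomes, 24.3% of protein-coding genes had a NOD H3K4me3 region in the gene body or within 5 kb of a gene start. The 6 markers are too few to set against this share. The paper reports similar levels of both marks at the Pou5f1 promoter in both strains, and the Pou5f1 region counted here was not placed relative to that promoter.

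The H3K4me3 libraries held 22750449 tags for NOD, 1.54 times the 14791364 tags for B6, and for H3K27ac the depth is unknown. The deeper library belongs to the strain with more H3K4me3 regions on every autosome but chromosome 6, and the part of depth in the number of regions was not tested. Tags below are those of the H3K4me3 libraries in a region. A fold is the ratio of tags after each library was scaled to the same total, given with its 95% interval. All intervals cover counting error only, since reads without molecular identifiers are not independent molecules and no replicate was made. Where the other strain had no tag, the fold was computed against 3 tags and is a lower bound.

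Sequences from some of the strongest regions are given with their CG dinucleotides. Shown here are the middle 200 bases of the region with the highest score in each list whose middle lies outside annotated exons, together with the NOD H3K4me3 region with the most tags, which lies inside Zfp42. The score is the authors' measure of strength. All sequences are from the plus strand of the RefSeq GRCm38 (mm10) assembly, 5′ to 3′, and capitals mark CG dinucleotides. They lie at chr8:85422345-85422544 in an intron of 4921524J17Rik, at chr8:20424815-20425014 beside the start of 2610005L07Rik, at chr8:60732553-60732752 between genes, at chr8:40643897-40644096 upstream of Mtmr7 and at chr8:43301837-43302036 in an intron of Zfp42.
NOD H3K4me3 region second by score: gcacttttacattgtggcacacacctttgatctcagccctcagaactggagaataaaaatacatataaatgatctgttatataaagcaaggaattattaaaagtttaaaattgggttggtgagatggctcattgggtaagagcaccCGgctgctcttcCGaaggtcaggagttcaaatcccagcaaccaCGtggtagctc
B6 H3K4me3 region first by score: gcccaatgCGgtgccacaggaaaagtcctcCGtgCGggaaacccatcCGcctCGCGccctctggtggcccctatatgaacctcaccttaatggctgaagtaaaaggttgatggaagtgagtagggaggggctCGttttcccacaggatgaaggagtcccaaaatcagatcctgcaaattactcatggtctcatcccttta
NOD H3K27ac region first by score: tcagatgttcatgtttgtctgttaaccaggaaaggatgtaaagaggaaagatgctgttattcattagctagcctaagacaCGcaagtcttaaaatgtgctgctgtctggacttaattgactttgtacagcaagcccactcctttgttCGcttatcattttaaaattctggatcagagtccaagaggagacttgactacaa
B6 H3K27ac region second by score: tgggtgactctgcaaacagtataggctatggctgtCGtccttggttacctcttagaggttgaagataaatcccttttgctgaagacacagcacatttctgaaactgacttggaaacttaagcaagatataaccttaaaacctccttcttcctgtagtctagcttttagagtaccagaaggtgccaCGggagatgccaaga
NOD H3K4me3 region with the most tags: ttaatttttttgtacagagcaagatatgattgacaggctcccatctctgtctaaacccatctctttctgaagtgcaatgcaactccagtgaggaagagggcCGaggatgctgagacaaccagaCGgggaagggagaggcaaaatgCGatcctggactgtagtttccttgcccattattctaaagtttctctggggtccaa
The B6 H3K4me3 sequence, at a gene start, held 7 CG dinucleotides. The others held 3, 2, 2 and 3. The stretch in 4921524J17Rik was repeat-masked over 83.5% of its bases. So few sequences do not describe the strong regions as a set. The middle 200 bases of all chromosome 8 regions held a median of 2 CG dinucleotides in each of the 4 lists, and at least 1 was present in 78.7% of NOD and 78.1% of B6 H3K4me3 regions and in 82.6% of NOD and 79.8% of B6 H3K27ac regions.

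Regions were dense along the whole of chromosome 8 for H3K4me3, in both strains, and less so for H3K27ac. The number of regions per Mb was 2.63 times (95% interval 2.50 to 2.77) the median of the 17 autosomes for NOD H3K4me3 and 2.07 times (1.92 to 2.23) for B6 H3K4me3, above each of the 17 in both lists. For H3K27ac the ratio was 1.43 (1.30 to 1.57) in NOD, again above each of the 17, but 0.879 (0.773 to 0.995) in B6, where 5 of the 17 had a lower density. Neighbouring NOD H3K4me3 regions lay a median of 49.2 kb apart, against 80.8 to 143.7 kb on the 17 autosomes. A B6 H3K4me3 region lay a median of 33.0 kb from the nearest NOD H3K4me3 region, against 47.2 to 107 kb elsewhere. Shorter distances go with a higher density, so both values restate the density. Whether NOD and B6 regions lie closer to each other than their density gives was not tested.

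**Figure D1:**
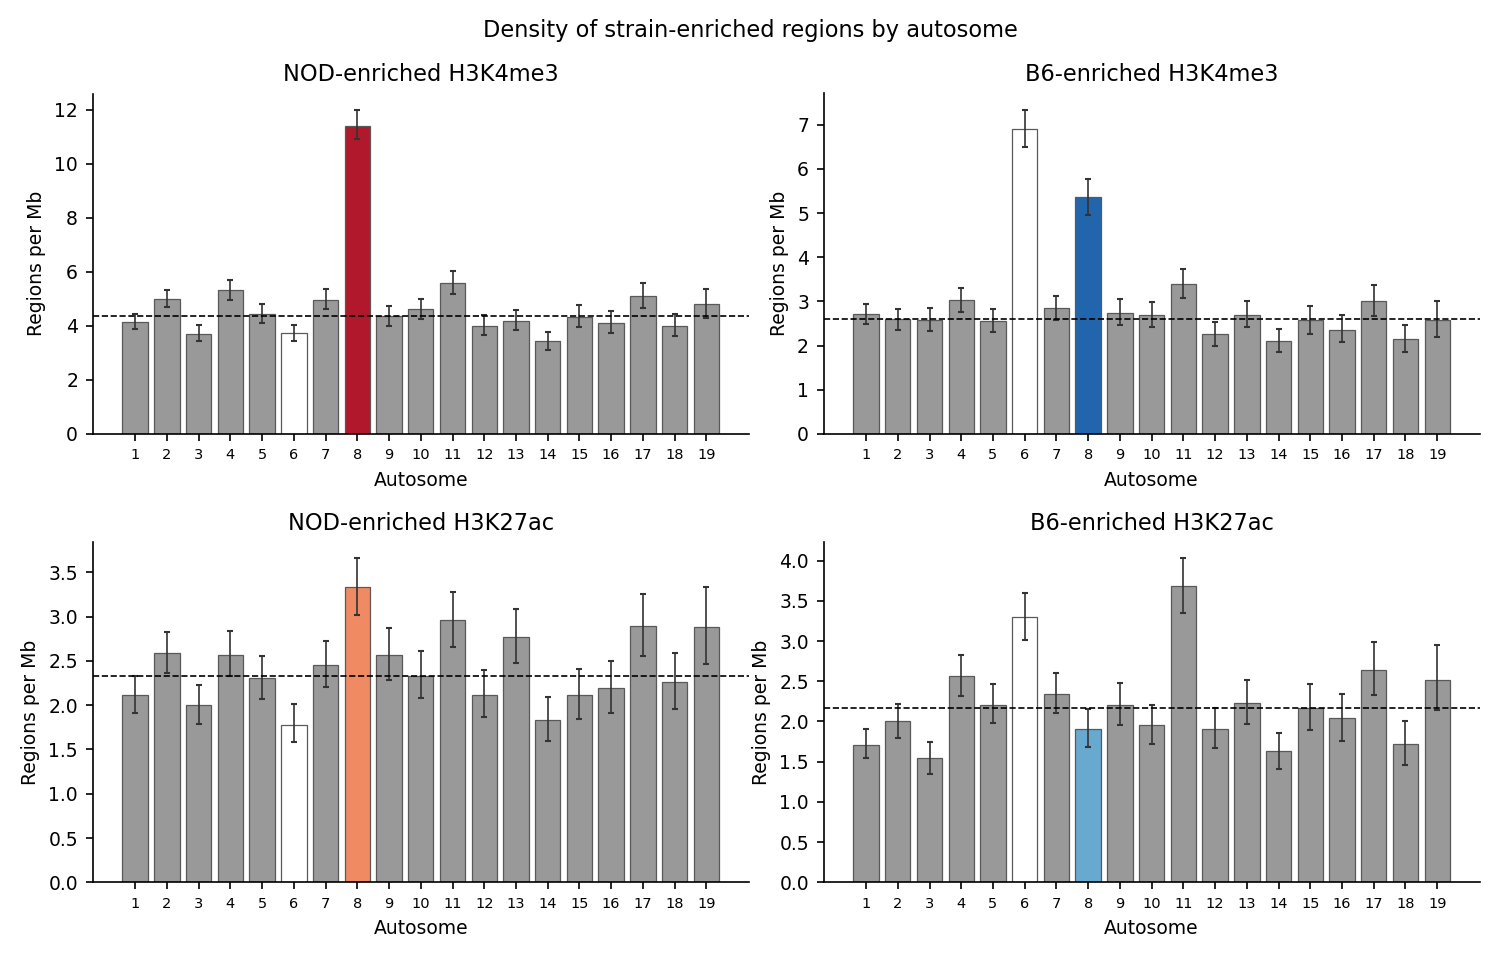
Strain-enriched regions per Mb on each autosome, 1 panel per list, with chromosome 8 coloured, chromosome 6 (left out of the comparison) white, exact 95% Poisson intervals as bars and the median of the 17 other autosomes as a dashed line. Chromosome 8 stands above all 17 of them for NOD H3K4me3, B6 H3K4me3 and NOD H3K27ac and lies within their range for B6 H3K27ac.

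No single stretch of the chromosome carried the H3K4me3 regions. In bins of 5 Mb, leaving out the first bin and the incomplete last one, NOD H3K4me3 counts ran from 26 to 96 regions with a median of 57, and all 24 bins were above the median of 21 found over 413 bins of the 17 autosomes. The B6 H3K4me3 counts ran from 14 to 38 with a median of 29, and all 24 bins were above the corresponding median of 12. For H3K27ac, 16 of the 24 bins in NOD and 14 in B6 were above the medians of 11 and 9. The bin with the most NOD H3K4me3 regions, from position 105000001 to 110000000, held 96 regions and 93 protein-coding genes, and it also held the most B6 H3K27ac regions of any bin, 22. From 80000001 to 85000000, the bin held the most B6 H3K4me3 regions (38) and the most NOD H3K27ac regions (35). A gene-poor bin from 50000001 to 55000000, with 9 protein-coding genes, still held 46 NOD and 18 B6 H3K4me3 regions, but 3 NOD and no B6 H3K27ac regions.

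**Figure D2:**
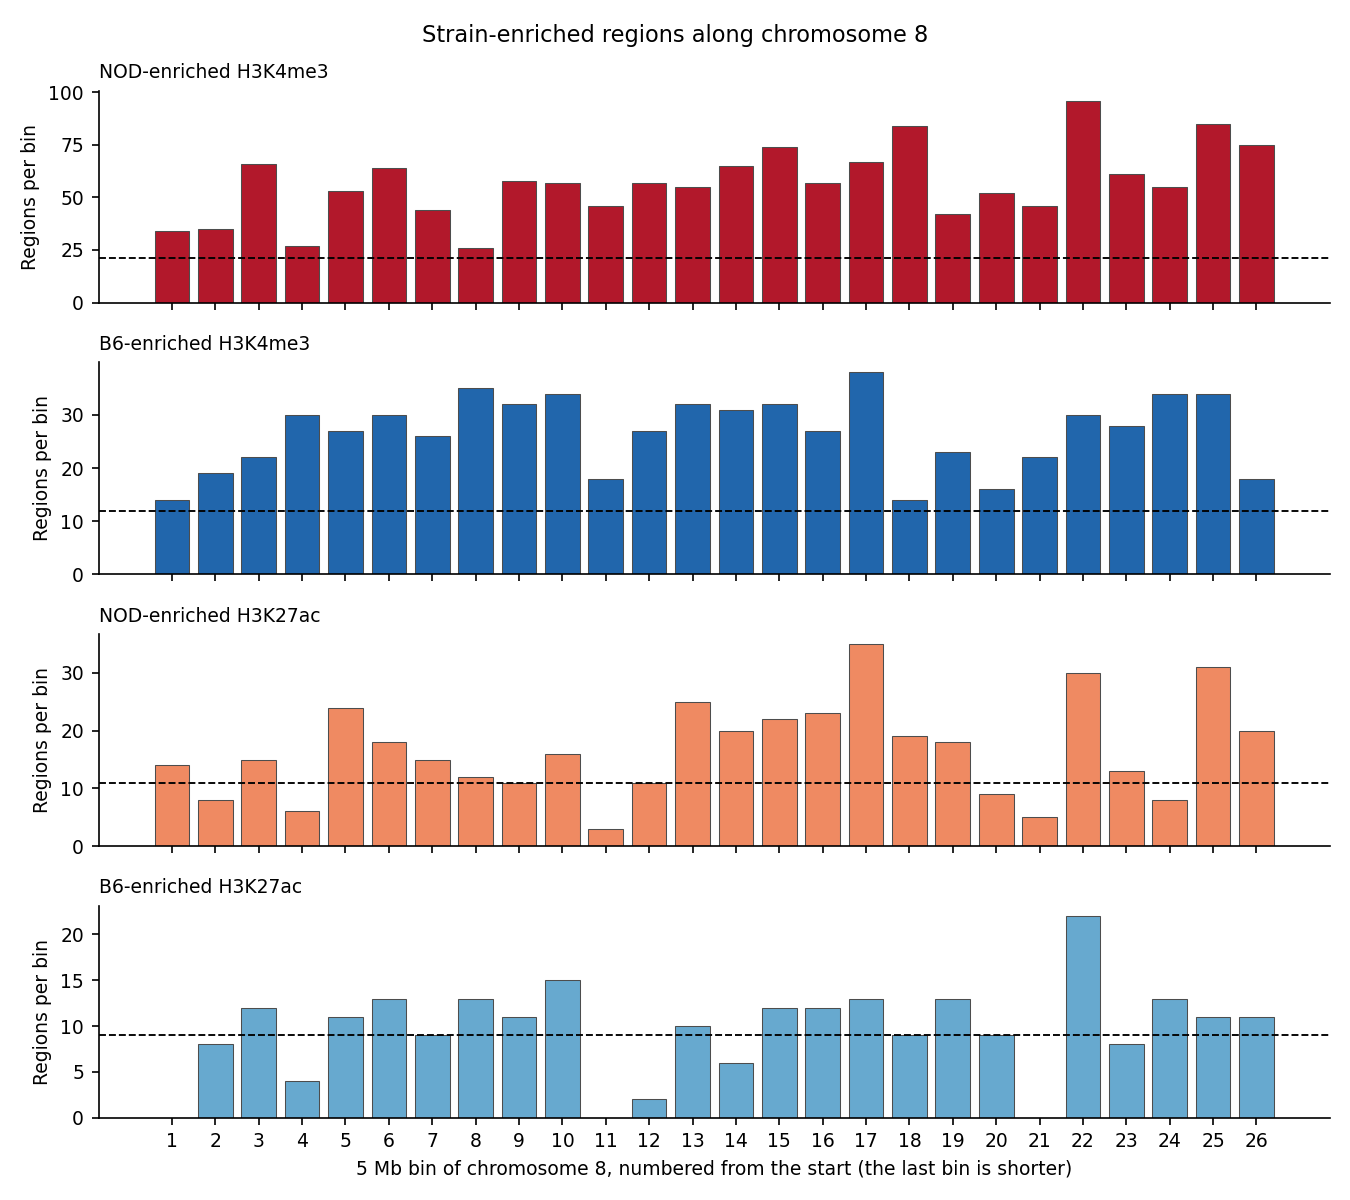
Number of strain-enriched regions in each 5 Mb bin along chromosome 8, 1 panel per list, with the median of the bins of the 17 other autosomes as a dashed line. H3K4me3 bars exceed the line along the whole chromosome in both strains, whereas H3K27ac bars fall on either side of it.

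The high density of H3K4me3 regions was found away from gene starts more than at them. Within 1 kb of a transcription start site (TSS), chromosome 8 held 82 NOD H3K4me3 regions, or 1.34 times (1.06 to 1.66) the median density of the 17 autosomes, whereas the 1399 other regions were at 2.79 times (2.64 to 2.94). Farther than 5 kb from any TSS the ratio was 2.97 (2.80 to 3.14). For B6 the 40 regions at a TSS were at 0.930 times (0.665 to 1.27) the median and those more than 5 kb away at 2.36 times (2.17 to 2.56). For H3K27ac in NOD the ratio was 1.72 (1.37 to 2.13) within 1 kb of a TSS and 1.36 (1.22 to 1.51) outside it, and in B6 0.670 (0.409 to 1.04) and 0.913 (0.798 to 1.04), with intervals that overlap in both strains.

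In all, 5.54% (4.48 to 6.82) of NOD H3K4me3 regions lay at a TSS, below the 9.11 to 15.6% of the 17 autosomes, and the B6 share of 5.77% (4.27 to 7.76) was below their 7.41 to 19.0%. Introns held 658 of the NOD regions (44.4%), intergenic sequence 636 (42.9%) and exons 105. The share was not below the range in every class of tags. With 30 or more NOD tags, 9.32% (7.31 to 11.8) were at a TSS against 14.0 to 22.3% elsewhere. With 30 or more B6 tags the share was 16.3% (9.95 to 25.5) against 19.3 to 44.8%. Under 30 tags it was inside the range, near its low end. There it was 2.63% of 837 NOD regions against 2.05 to 7.51%, and 4.28% of 607 B6 regions against 4.23 to 12.8%. With 50 or more NOD tags the share of 18.2% fell inside the range of 16.5 to 32.2%, and with 50 or more B6 tags that of 27.8% inside 17.9 to 80.0%. The median observed over expected CpG ratio was low as well, at 0.204 in NOD and 0.197 in B6 H3K4me3 regions against 0.222 to 0.274 and 0.211 to 0.294. The NOD H3K27ac regions of chromosome 8, in contrast, had a TSS share of 19.7% (16.2 to 23.7), inside the range of 12.2 to 21.5%.

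**Figure D3:**
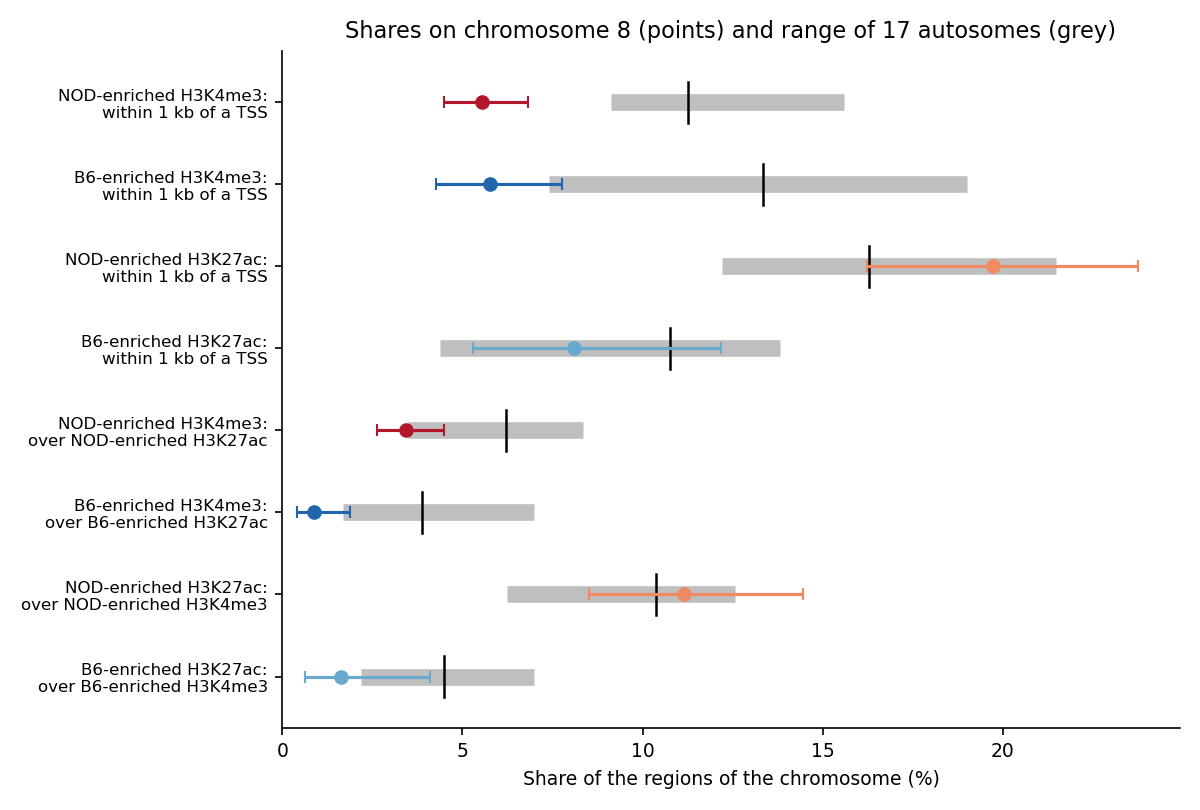
Share of chromosome 8 regions within 1 kb of a TSS and share overlapping a region of the other mark in the same strain, as points with 95% Wilson intervals beside the range (grey) and median (black) of the 17 other autosomes. The H3K4me3 points for both strains lie below the grey ranges, at 5.54% and 5.77% for the TSS share and 3.44% and 0.866% for the overlap, and all of their intervals but that of the NOD TSS share reach into the range.

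The density ratio was higher among NOD regions with few tags than among those with many. A median NOD H3K4me3 region on chromosome 8 held 28 NOD tags and 1 B6 tag, and a median B6 region 19 B6 tags and 2 NOD tags. Among NOD regions the density ratio was 3.21 (2.85 to 3.59) at 20 to 24 tags and 3.26 (2.93 to 3.61) at 25 to 29 tags, 1.32 (1.04 to 1.66) at 60 to 99 tags and 1.80 (1.45 to 2.20) for the 94 regions with 100 or more. In B6 the ratio stayed between 1.99 and 2.35 in each class up to 39 tags, and was 1.17 (0.714 to 1.80) at 40 to 59 tags and 0.687 (0.223 to 1.60) at 60 to 99 tags, where 5 regions lay. The 9 B6 regions with 100 or more tags were again at 2.11 times (0.965 to 4.01) the median, with too few regions to tell the classes of many tags apart. Regions with 50 or more tags made up 14.4% of the NOD list on chromosome 8, below the 18.5 to 27.1% of the 17 autosomes. A width of exactly 500 bp, that of a single peak call, was found for 1129 NOD regions (76.2%) and 610 B6 regions (88.0%), within the ranges elsewhere. In NOD the density ratio was 2.78 (2.62 to 2.95) for regions of this width and 2.04 (1.63 to 2.51) for the 86 regions of 1 kb or more.

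**Figure D4:**
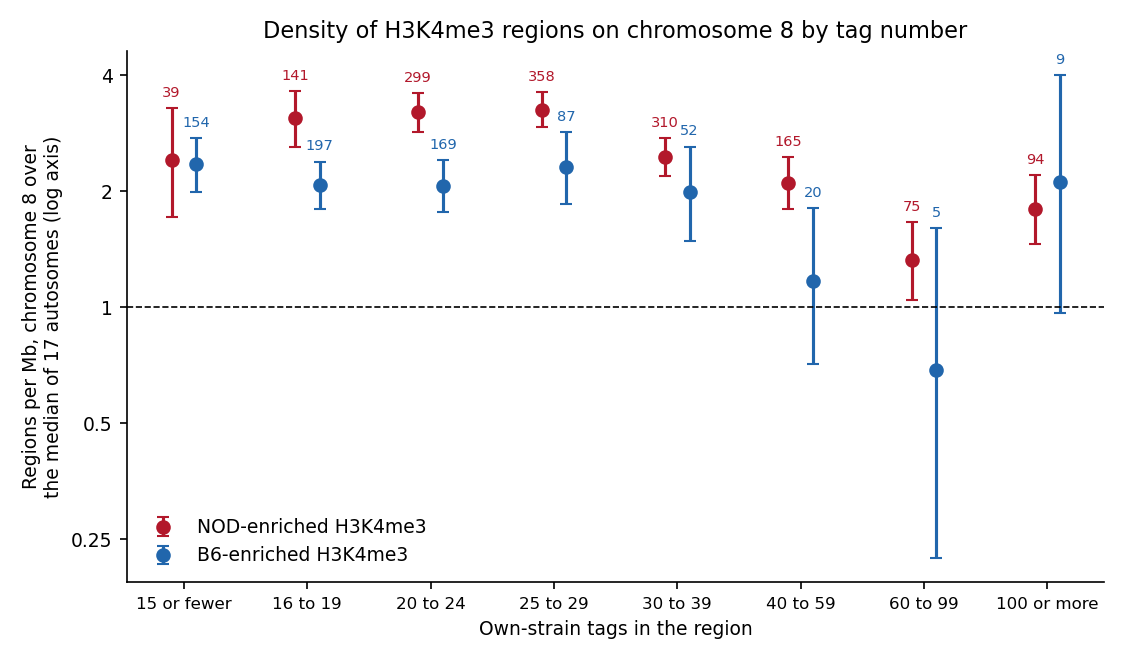
Ratio of the region density on chromosome 8 to the median of the 17 other autosomes, by the number of own-strain tags in the region, on a log axis, with exact 95% Poisson intervals and the number of chromosome 8 regions beside each point. The NOD ratio runs near 3 for regions of 16 to 29 tags and below 2 for those of 60 or more.

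Part of the regions lay near the call limits. The lowest fold in the deposited lists was 4 in NOD and 4.02 in B6, at the required 4, and 215 NOD and 96 B6 regions were under 5. Conversely, 573 NOD regions (38.7%) had no B6 tag and 253 B6 regions (36.5%) no NOD tag, within the ranges of 28.1 to 39.2% and 30.4 to 41.2% elsewhere. Own-strain tags ranged from 11 to 1436 in NOD and from 7 to 731 in B6.

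Zfp42 held the NOD H3K4me3 regions with the highest score and with the most tags on the chromosome, though not with the largest fold. Zfp42, also known as Rex1, encodes a zinc finger protein used as a marker of naive pluripotency, and lies on the minus strand from 43295067 to 43307009. Its exonic region from 43305612 to 43306112, 1.15 kb inside the gene, held 992 tags of NOD and 161 of B6 (fold 4.01, 3.39 to 4.76) and had the highest score of the whole NOD H3K4me3 list, 266. The intronic region from 43298930 to 43304942, whose middle is shown above, had the most NOD tags on chromosome 8, 1436 against 77 in B6, a fold of 12.1 (9.64 to 15.5). These regions follow each other along most of the gene body. A region at the 3′ side of the gene had 154 NOD and 13 B6 tags, 1 upstream of the TSS 94 and 10, and 1 farther upstream 29 and 0. The H3K27ac region of NOD with rank 3 on the chromosome, scored 417.8, lay 18.9 kb upstream of Zfp42, from 43321005 to 43330766. Its neighbours Triml1 and Triml2, tripartite motif family-like genes, carried NOD H3K4me3 regions of 234 and 15 tags and of 215 and 32 tags.

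Other NOD regions with high scores or tags lay at genes of varied function. An intron of 4921524J17Rik, a gene without an assigned function, had 744 NOD and 99 B6 tags from 85421580 to 85423308 (fold 4.89, 3.96 to 6.09), over a NOD H3K27ac region. The TSS of Ndrg4, which encodes a cytoplasmic protein of brain and heart, had 536 and 70 tags (4.98, 3.87 to 6.48). At the TSS of Hand2, which encodes a transcription factor of heart and limb development, 445 and 54 tags were found (5.36, 4.03 to 7.25). Stox2, encoding a winged helix domain protein, had 222 and 36 tags in an exon, 1.29 kb past 1 of its alternative starts and far inside the gene. Each of these 4 regions had a fold between 4.01 and 5.36 and at least 36 B6 tags. Larger folds were found between genes and in introns. The intergenic region from 64363370 to 64366392 held 735 tags of NOD and 13 of B6 (fold 36.8, 21.4 to 69.4), whereas an intron of the zinc finger gene Zfp961 had 1152 and 151 tags, a fold of 4.96 (4.18 to 5.92).

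Regions with no B6 tag at all were weaker by tags. The 3 with the most NOD tags had 91, 86 and 67, for folds of at least 19.7, at least 18.6 and at least 14.5. The first lay from 84057427 to 84058273, 8.99 kb upstream of Rfx1, which encodes a transcription factor that binds X-box motifs, and overlapped a NOD H3K27ac region. Neither of the others overlapped one. None of the 94 NOD regions with 100 or more tags was free of B6 tags. Of these 94, 42 lay in introns, 24 between genes, 17 at a TSS and 11 in exons, and 15 overlapped NOD H3K27ac (95% interval of this share 9.92 to 24.7%).

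At gene starts, named here after their values were seen, the NOD regions with the most tags behind Ndrg4 and Hand2 included Foxf1, encoding a forkhead transcription factor of the mesoderm, with 186 NOD and 21 B6 tags. Ank1, encoding an ankyrin of the red cell membrane skeleton, had 173 and 21 tags. The folds at these starts were 5.76 and 5.36. Larger folds were found on fewer tags. Nlrc5, a transactivator of MHC class I genes, had 85 and 3 tags (18.4, 6.09 to 91.1) from 94472931 to 94474067. That is an alternative start far inside the gene, which begins at 94434335. At the start of Irf8, an interferon regulatory factor of myeloid cells, 76 and 4 tags were found (12.4, 4.63 to 46.5). Nanos3, a gene of the germ line, had 106 and 7 tags (9.85, 4.62 to 25.1). The 82 NOD regions at a TSS ranged from 17 to 536 NOD tags with a median of 47.5.

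**Figure D5:**
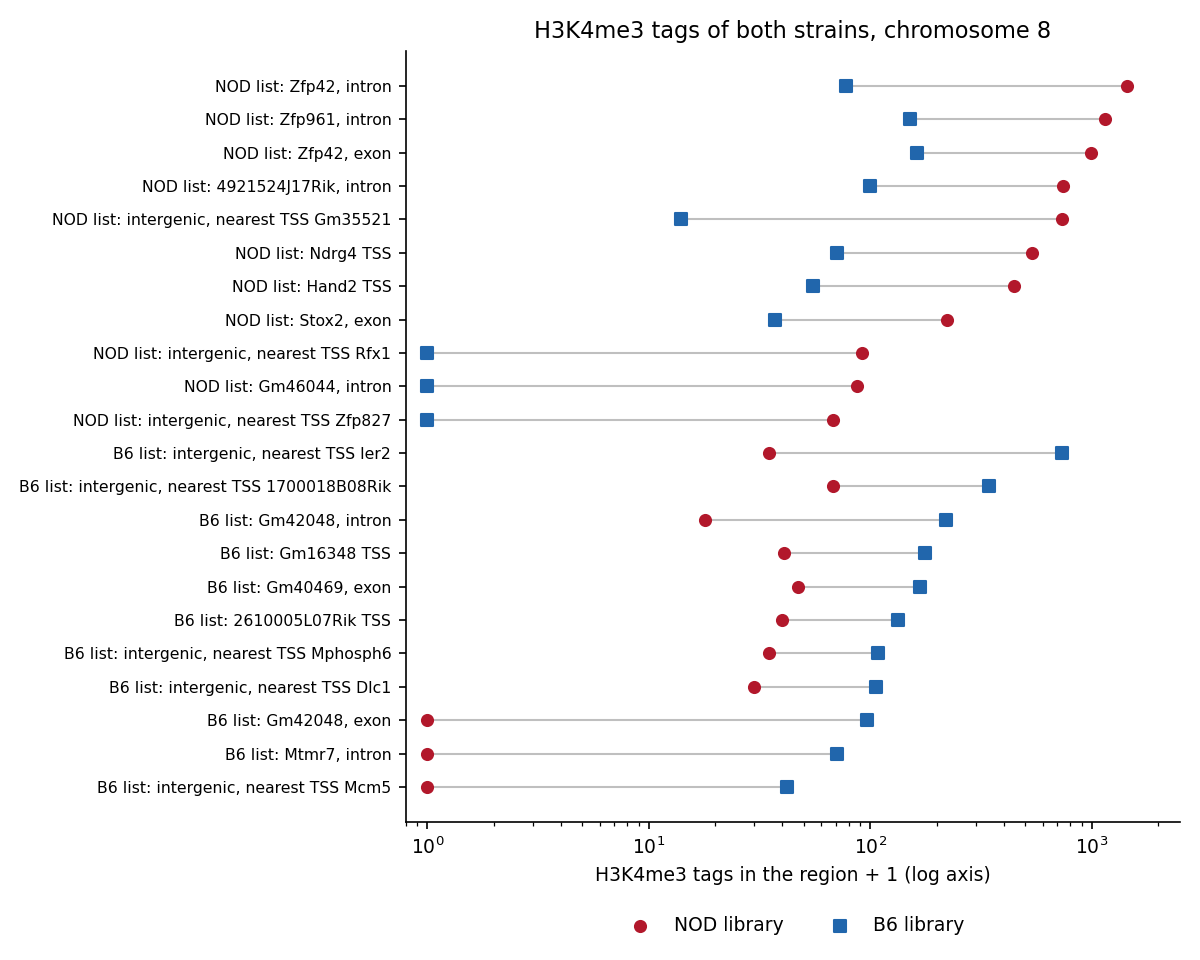
NOD and B6 tags (plus 1, log axis) in the 22 H3K4me3 regions with the highest scores, the most tags, or the most tags and none in the other strain, with 1 line per region joining its pair of points. The NOD-enriched regions at Zfp42, Ndrg4 and Hand2 keep 161, 70 and 54 B6 tags, whereas others have no tag in the other strain.

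B6-enriched H3K4me3 regions held fewer tags, from the smaller library, and 40 of 693 were at a TSS. The highest score, 55, was at the start of 2610005L07Rik from 20424448 to 20425381, with 133 B6 and 39 NOD tags (fold 5.25, 3.65 to 7.70), the CG-richest of the sequences shown above. The most B6 tags, 731 against 34 in NOD, were found in the intergenic region from 84652765 to 84655656, 8.64 kb from the start of Ier2, an immediate early gene, for a fold of 33.1 (23.4 to 48.1). A pair of regions near the far end of the chromosome overlapped B6 H3K27ac. That from 121841257 to 121843276 had 220 B6 and 17 NOD tags (19.9, 12.2 to 34.8), and that from 121378188 to 121380371 had 342 and 67 (7.85, 6.03 to 10.4). The other 2 of the 5 highest scores lay between genes, near Mphosph6 with 107 and 34 tags and near Dlc1 with 105 and 29.

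The B6 regions without a NOD tag were led by a region from 121835189 to 121836772 with 96 tags, at least 49.2-fold higher in B6, which also overlapped B6 H3K27ac. An intron of Mtmr7, a myotubularin-related phosphatase gene, had 70 B6 tags and no NOD tag, at least 35.9-fold higher, and a region from 75145954 to 75146715 had 41, at least 21.0-fold higher. At gene starts, again named after their values were seen, the region with the most B6 tags was at the start of Gm16348 inside Fgl1, which encodes a fibrinogen-like liver protein, with 176 B6 and 40 NOD tags (6.77, 4.78 to 9.79). Nqo1, encoding a quinone reductase of the oxidative stress response, had 71 and 23 tags (4.75, 2.93 to 7.96). Nrp1, encoding a receptor for semaphorins and vascular endothelial growth factor, had 37 and 9 tags. The 40 B6 regions at a TSS ranged from 13 to 176 B6 tags with a median of 22.

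The strongest NOD H3K27ac domains lay outside promoters. Their score is the signal of the authors' own-strain library over the other on a scale the files do not state, and no tags are given. The top score of 679.2 belonged to a domain of 27517 bp between genes, from 60718894 to 60746411, whose centre is annotated as an RLTR49 element of the ERVK family and whose nearest TSS, 77.1 kb from the centre, is that of Mfap3l. Its middle is shown above. The second, scored 653.7, covered 21909 bp in an intron of Pard3, a cell polarity gene, and overlapped NOD H3K4me3. Sgo2b, a shugoshin family gene of chromosome cohesion, held the fourth in its last intron (397.2), and the fifth, of 1257 bp, lay 18.5 kb upstream of Ap3m2 (347.6). Scores over the 431 regions ran from 2.98 to 679.2 with a median of 12.1. Super enhancers, taken as regions with a value of at least 1 in a column read here as the slope of the ranked scores, numbered 33 (7.66%) and carried 48.9% of the summed score, among them a domain over the start of Ido2, which encodes a tryptophan-degrading enzyme (286.7), 1 in Gse1 (254.8) and 1 in Fat1, an atypical cadherin gene (183.9). At the other end, the super enhancers at Mmp15 and Gsr had scores of 3.05 and 2.98, and were counted for their slope value alone.

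In B6, 13 super enhancers (5.26%) carried 29.9% of the summed score, and 1 of them, in Slc27a1, had the lowest score of the list on the chromosome, -2.716. It was counted for its slope value alone, and its negative score does not itself show an excess in B6. The top super enhancer, scored 291.2, spanned 121831964 to 121841842 at an ERV1 element, and holds the B6 H3K4me3 region of 96 and 0 tags described above. The next, scored 275.1, lay 9.20 kb upstream of Mtmr7, where the middle sequence is shown above, and the third, scored 269.1, lay over an L1 element, with its centre 158.9 kb from the nearest TSS, that of Wrn. The fourth, near the homeobox gene Nkx6-3, scored 175.4. The median score was 13. Besides the upstream domain, Mtmr7 had an intronic B6 H3K27ac region of score 101.8 and B6 H3K4me3 at its start, with 42 B6 and 16 NOD tags, as well as in the intron. It also had 1 H3K27ac region enriched in NOD.

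The NOD H3K27ac regions of chromosome 8 also differed from those of the other autosomes in some measures of where they lay. Their median GC content was 47.1% against 44.8 to 46.6%, and a median of 15.0% of a region was repeat-masked against 18.8 to 27.4%. Centres in no repeat made up 68.7% (64.2 to 72.9) against 52.2 to 66.6%. Those in exons by the deposited annotation made up 5.10% (3.39 to 7.61) against 1.40 to 4.16%. Each of these 4 values lay outside the range of the 17 autosomes, and they were picked for that from a larger set of measures. The intervals of both shares reached into the range. By RefSeq the share in exons, 6.03% (4.15 to 8.69), was inside the range of 2.44 to 6.58%. The density ratio was 1.59 (1.41 to 1.78) for regions in no repeat and 1.25 (0.984 to 1.58) for those in LTR elements. None of the same measures left the range in B6.

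H3K4me3 and H3K27ac regions of the same strain rarely coincided. Of NOD H3K4me3 regions, 51 of 1481 (3.44%, 2.63 to 4.50) overlapped a NOD H3K27ac region, below the 3.49 to 8.33% of the 17 autosomes, while the number of such overlaps per Mb, 0.394, was within their 0.144 to 0.406. In B6, 6 of 693 (0.866%, 0.397 to 1.88) overlapped, against 1.69 to 6.98%. Seen from the other mark, 48 of 431 NOD H3K27ac regions (11.1%, 8.50 to 14.5) overlapped NOD H3K4me3, within 6.23 to 12.5%, and 4 of 247 in B6 (1.62%, 0.632 to 4.09), below 2.18 to 6.98%. The intervals of the 3 shares that lay below the range reached into it. Among NOD super enhancers 14 of 33 (42.4%, 27.2 to 59.2) overlapped a NOD H3K4me3 region.

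Of the 1043 protein-coding genes of chromosome 8, 649 had a region of at least 1 list in the gene body or within 5 kb of a TSS. NOD H3K4me3 regions were found at 439 genes (42.1%), against 4474 of 18395 genes (24.3%) on the 17 autosomes. B6 H3K4me3 regions were found at 240 genes (23.0%) against 2918 (15.9%). For H3K27ac the numbers were 254 genes (24.4%) against 3049 (16.6%) in NOD and 128 (12.3%) against 2705 (14.7%) in B6. The NOD H3K4me3 share lay above each of the 17 autosomes, the highest of which was at 32.1%, and the NOD H3K27ac share above their highest of 23.9%, whereas both B6 shares were inside the ranges. For H3K4me3, 140 of the 1043 genes had regions of both strains, 299 of NOD only and 100 of B6 only. Such a split depends on the share of genes with each list, given above. It was not set beside the 17 autosomes and does not mark genes as particular to 1 strain. Long genes collected the most regions: Tenm3, a teneurin gene of neuronal wiring spanning 1297 kb, had 17 NOD and 12 B6 H3K4me3 regions and 7 B6 H3K27ac regions. The shorter Gse1, of 353 kb, also had 17 NOD regions, or 48.2 per Mb of gene.

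Of the 1043 genes, 439 had H3K4me3 and 254 H3K27ac regions enriched in NOD, and 240 and 128 had such regions enriched in B6. How many genes hold both marks depends on these numbers. It was not set beside the other autosomes, and whether the marks share genes more often than these numbers give was not tested. Both marks were enriched in NOD at 153 genes, 82 of them with the H3K4me3 region within 5 kb of a TSS. In B6 they were enriched at 46 and 20 genes. The NOD gene with the most tags of this kind was Tbc1d9, a Rab GTPase-activating protein family gene, with 326 NOD and 48 B6 tags 1.31 kb inside the gene (fold 4.42, 3.25 to 6.11) and H3K27ac scores of 39.6 at its start and 43.7 farther inside. Slc7a5, encoding a large neutral amino acid transporter, had 234 and 38 tags. Mcoln1, encoding a lysosomal cation channel, shared a region of 232 and 29 tags with its neighbour Zfp358 and held an H3K27ac domain of score 77.6. Mcoln1 also had 1 H3K4me3 region enriched in B6. In B6 the list was led by Sfrp1, which encodes a secreted inhibitor of Wnt signalling, with 104 B6 and 35 NOD tags (4.57) and an H3K27ac super enhancer of score 80.6 at its promoter. Sfrp1 also had 1 H3K4me3 region enriched in NOD. Palm3, a paralemmin gene, followed with 85 and 29 tags and an H3K27ac score of 15.7 at its start. The 250 bases before the start of Tbc1d9, at chr8:83165102-83165351 on the plus strand of GRCm38 by RefSeq, are shown because both marks were enriched in NOD just inside this start, again with CG dinucleotides in capitals.
Tbc1d9 upstream: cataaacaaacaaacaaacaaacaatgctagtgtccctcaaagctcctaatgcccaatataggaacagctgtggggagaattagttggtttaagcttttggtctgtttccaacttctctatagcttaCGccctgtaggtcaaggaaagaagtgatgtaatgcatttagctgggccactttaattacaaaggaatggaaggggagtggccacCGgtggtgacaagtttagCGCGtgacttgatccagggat
This window held 4 CG dinucleotides. Over the same 250 bases of all 32851 promoters the median was 6 and 92.1% held at least 1, and over the 1442 promoters of chromosome 8 the median was also 6.

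Gene groups of chromosome 8 were read against the shares of all its genes, 42.1% for NOD and 23.0% for B6 H3K4me3, and 24.4% for NOD and 12.3% for B6 H3K27ac. The groups are small, and none was tested against these shares. Of 9 ES cell factors, 6 had a NOD H3K4me3 region, 2 a B6 one and 1, Klf2, no region. Sall1, a zinc finger factor of ES cells and the developing kidney, had NOD regions of 196 and 29 tags and of 127 and 6 tags upstream of its start. Cdh1, encoding E-cadherin, had a NOD region of 88 and 13 tags and a B6 region of 30 B6 and 11 NOD tags within 5 kb of the same start. Smad1, a transducer of BMP signals, had 38 NOD tags and no B6 tag in an intron. Junb, a subunit of AP-1, had NOD H3K27ac of score 43.6 only. Of 10 developmental transcription factors, 5 had a NOD and 1 a B6 H3K4me3 region, none had H3K27ac of either strain and 5 had no region. Besides Hand2, Sall1 and Foxf1, these were Sox1, a neural gene, with 181 and 28 tags, and Irx3, an Iroquois homeobox gene, with 24 and 3 tags.

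Of 20 immune genes, 12 had a NOD H3K4me3 region, 8 a B6 H3K4me3 region, 6 NOD and 1 B6 H3K27ac, and 7 had none. The largest NOD values were at Il12rb1, an interleukin receptor subunit gene, with 193 and 28 tags, though this region lies in an intron of the neighbouring Mast3. Il34, a cytokine gene of macrophages and microglia, had 185 and 21 tags over NOD H3K27ac, and Ido2 had 104 and 10. Nod2, a sensor of bacterial cell wall fragments, had 45 and 1. Some immune genes carried regions of both strains, and Il12rb1 and Il34 each had 1 B6 H3K4me3 region as well. Jak3, a kinase of cytokine receptors, had 51 B6 and 17 NOD tags at its start, but 29 NOD and 3 B6 tags just inside the gene. Irf8 likewise had 76 NOD and 4 B6 tags at its start, and a B6 region of 19 B6 and 5 NOD tags in an exon.

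Of 53 defensin genes, which encode antimicrobial peptides, 48 had no region, 2 had the same NOD region, 4 had a B6 H3K4me3 region, and none had H3K27ac of either strain. The reads of such near-identical copies may not be assigned to a single place, so these counts are uncertain. Of 19 carboxylesterase genes, enzymes of ester and drug hydrolysis, 6 had a NOD and 1 a B6 H3K4me3 region and 12 none. The named NOD region with the most tags, in Ces1d, held 28 NOD tags, which is the median of the NOD regions of the chromosome. Of 25 zinc finger genes, 11 had a NOD and 3 a B6 H3K4me3 region, 6 NOD and 1 B6 H3K27ac, and 10 none. Besides Zfp42 and Zfp961 they included Zfp423, an adipocyte and brain factor, with 86 and 6 tags upstream of its start. Of 8 cadherin genes, 6 had a NOD and 4 a B6 H3K4me3 region and 2 had none. Of 4 genes of metallothioneins, which bind zinc and copper, none had a NOD H3K4me3 region, and 4 genes are too few to set the group apart. Mt3 had 27 B6 tags and 1 NOD tag and Mt4 20 and 7, both at their starts, while Mt2 had NOD H3K27ac of score 18.8 at its start and Mt1 no region.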

How the data were processed

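ChIP-Seq of H3K4me3 and H3K27ac was available for 1 library per strain and mark. Reads were mapped to mm10 with bowtie2 and analysed with HOMER, according to the methods and file headers. The submitters' processing notes instead name mm9, STAR 2.2.0c and CASAVA 1.8.2, and the coordinates were used as mm10. For H3K4me3, the authors called regions against the other strain and required, per the file headers, at least 8 tags in a 500 bp peak, a 4-fold excess and a Poisson p-value of 1.00e-04. The deposited p-value of a single region was not used. The deposited fold is a ratio of tags scaled to the smaller library, and the deposited count of B6 tags is a whole number, while the deposited NOD signal is scaled to the B6 library and was converted back to whole tags. The deposited normalised signal is per 10000000 tags. The deposited score of an H3K4me3 region is a whole number from the tag threshold up, and that of an H3K27ac region is a difference between strains on an unstated scale. The meaning of the other deposited column used, that after the H3K27ac score, is not stated in the files: it was read here as a slope value, or as the region size in the top 5 regions, and values from 1 up were taken to mark super enhancers, so that their numbers rest on this reading. Total depth was 22750449 NOD and 14791364 B6 tags for H3K4me3.

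All rows of chromosome 8 (129401213 bp) were taken and set beside the range over 17 other autosomes. Chromosome 6 was left out because it also stands apart in region number. Intervals are exact Poisson for densities, Wilson for shares and exact Clopper-Pearson for folds, at 95%. Distances were measured from region centres to curated GRCm38.p6 RefSeq transcripts, and for the H3K27ac share at a TSS were those of the file. Named are the 5 regions of each list with the highest score, the 3 per strain with the most tags and none in the other strain, the 5 genes per strain with both marks and the most tags near a TSS, the 3 genes with the most regions, the densest 5 Mb bins and up to 4 members of each gene list. The regions with the most tags and those at gene starts were added after their values were seen. One of the results that these rules name is not reported here. Sequences were taken from the highest-ranked region whose middle lies outside annotated exons, which passed over the first NOD H3K4me3 and the first B6 H3K27ac region. The chromosome, its members and the gene lists were chosen with earlier results of these data known. Python 3.11.15, numpy 2.4.6, pandas 2.3.3, scipy 1.17.1 and matplotlib 3.10.9 were used, and the functions were tested on simulated data. Alternatives were tag minimums, a fold of 8 or more, scores above 0, super enhancers, calls within 2500 bp joined, length without assembly gaps, density per gene start, leaving out the densest 5 Mb bin, regions within or outside 1 kb of a TSS, a TSS window of 5 kb and an overlap of at least 50% of the region.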

Additional observations from a re-analysis of the deposited data

How the results depend on the processing

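No replicate exists, so every statement rests on 1 library per strain and mark, and the effect of depth on weak regions was not tested. No paired analysis was possible because each strain and mark had 1 library. Of 49 alternative values, 28 moved by less than their counting interval, 19 by more and 2 changed direction; the cause was not tested. The density ratio of chromosome 8 to the median of 17 autosomes was 2.10 for NOD and 1.49 for B6 H3K4me3 with 30 or more tags, and 1.67 for NOD and 0.965 for B6, a change of direction, with 50 or more. By place, alternatives added after seeing the data, it was 2.79 away from and 1.34 within 1 kb of a TSS for NOD, and 0.930, again reversed, within 1 kb for B6. For super enhancers it was 1.25 in NOD and 0.697 in B6. With 50 or more tags, 92.2% of H3K4me3 regions were of NOD. This minimum was set on unscaled tags, so the deeper NOD library reaches it more easily. On the 17 autosomes together, 23.3% of NOD and 6.15% of B6 regions reached it, so the 92.2% is no measure of a strain difference. At the same minimum, the TSS share was 18.2% in NOD and 27.8% in B6 and the overlap with H3K27ac 12.6% and 16.7%. The share without tags of the other strain was 2.80% and 11.1%. Within 5 kb, the TSS share was 20.4% for NOD and 15.2% for B6 H3K4me3 and 30.2% and 17.4% for H3K27ac, as a wider window must give. An overlap of at least 50% of the region left 1.82% of NOD H3K4me3 regions over NOD H3K27ac.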
